A study of Rattus norvegicus with 12 samples.

Results

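The comparison set the miRNA content of extracellular vesicles (EVs) from Thy1+ mesenchymal cells of injured rat liver (Thy1-MC-EVs) against that of EVs from small hepatocytes (SH-EVs), with 3 arrays per group, 6 of the 12 arrays of the series. The arrays were chosen by their sample titles, and every rat miRNA probe of the chip was included. Of 727 probes, 387 were detected on every array of at least 1 of the 4 groups of the series and were tested.

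Donors were male F344/Nslc rats, 8 to 10 weeks old. For the healthy rats that gave small hepatocytes, the article gives an age range with the same lower and a higher upper limit. Thy1+ cells were sorted magnetically from livers injured with d-galactosamine and cultured, the epithelial colonies were removed, and the mesenchymal cells that remained (Thy1-MCs) were used. Small hepatocytes (SHs), hepatocytic progenitor cells, came from uninjured livers and were grown on dishes coated with hyaluronic acid. Both kinds of cell were kept for 2 days in serum-free DMEM, after which EVs were collected by filtration and ultracentrifugation, and their RNA was labelled with Cy3 for a single-colour miRNA chip. The labels name no transgene or added compound for either group. The sample labels name the source of the Thy1 arrays as liver stem cells and that of the SH arrays as liver progenitor cells, and that the Thy1 arrays hold mesenchymal cells comes from the article. The labels give plastic dishes for the Thy1+ cells where the article's methods give a collagen coat. Cell kind, culture surface and prior liver injury differed together between the groups and cannot be told apart. Age may have differed as well, since the ranges given are not the same. Nothing in the sources used here says whether the 3 arrays of a group came from separate animals or cultures. The limma p-values rest on the spread between arrays within a group, taken over all 4 groups of the series. That spread may be technical.

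A miRNA precursor is a hairpin from which a 5p and a 3p strand can be cut. One strand is usually kept and loaded into an Argonaute protein, and its bases 2 to 8, the seed, pair with target mRNAs, so that miRNAs with one seed share many targets. Many miRNA genes lie in clusters that are transcribed as a single primary RNA. EVs carry a sample of the miRNAs of the cells that release them, and in liver such EVs pass between mesenchymal, endothelial, Kupffer and hepatocytic cells. A lower level in EV RNA may come from fewer EVs of one kind or from less of the miRNA per EV, and these measurements do not separate them.

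The largest differences and the seed families whose members were called together are shown here by sequence. Mature sequences are from RefSeq (GRCr8), matched by miRNA name for 653 of the 727 probes and 345 of the 387 tested. They are written 5′ to 3′ with the seed in capitals. The first set holds the miRNAs that were higher in Thy1-MC-EVs. The miR-125a-5p, miR-125b-5p and miR-351-5p strands share 1 seed, the miR-664 strands share another, and miR-451-5p, miR-145-5p and miR-10a-5p had the largest fold changes without a tested relative of the same seed among the called miRNAs.
miR-451-5p: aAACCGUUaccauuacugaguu
miR-145-5p: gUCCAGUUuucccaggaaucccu
miR-10a-5p: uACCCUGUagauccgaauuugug
miR-125a-5p: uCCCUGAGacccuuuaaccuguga
miR-125b-5p: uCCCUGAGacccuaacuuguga
miR-351-5p: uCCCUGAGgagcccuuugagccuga
miR-664-1-5p: cUGGCUGGggaaaaagauugg
miR-664-2-5p: cUGGCUGGggaaaaugauugg

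The second set holds miRNAs that were lower in Thy1-MC-EVs, and miR-92b-3p, which did not pass and is shown for its seed. The miR-25 and miR-92 strands share a seed, as do miR-130a-3p and miR-130b-3p, and miR-106b-5p and miR-93-5p. The seeds of miR-96-5p and miR-182 are the same from base 2 to base 7, and let-7e-5p and miR-99b-5p are shown because they lie in 1 cluster with miR-125a.
miR-183-5p: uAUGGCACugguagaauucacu
miR-96-5p: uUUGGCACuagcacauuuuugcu
miR-182: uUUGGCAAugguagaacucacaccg
miR-25-3p: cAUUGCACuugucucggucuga
miR-92a-3p: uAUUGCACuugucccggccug
miR-92b-3p: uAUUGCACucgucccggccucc
miR-130a-3p: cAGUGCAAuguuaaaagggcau
miR-130b-3p: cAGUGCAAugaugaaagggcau
miR-106b-5p: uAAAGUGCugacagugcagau
miR-93-5p: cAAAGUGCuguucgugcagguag
miR-19b-3p: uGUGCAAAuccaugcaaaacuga
let-7e-5p: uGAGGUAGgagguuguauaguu
miR-99b-5p: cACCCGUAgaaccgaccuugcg

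Array measures overlapped between the groups. A probe was detected when the authors had kept its background-subtracted value, which corresponded to a raw intensity above the mean of the blank spots plus 2 SD. Thy1-MC-EV arrays detected 228 to 359 of the 727 probes and SH-EV arrays 271 to 330 (two-sided exact permutation test, p = 0.9, n = 3 and 3, smallest possible p = 0.1). The mean of the blank spots ranged from 96.8 to 124.8 in Thy1-MC-EVs and from 101.3 to 123.4 in SH-EVs. Of the control spots that hold no miRNA probe, 44.4% to 49.9% in Thy1-MC-EVs and 46.1% to 73.9% in SH-EVs lay above the same limit, so a probe just above it may hold no signal. Normalized log2 levels correlated across probes with r = 0.955 to 0.980 between Thy1-MC-EV arrays, 0.953 to 0.992 between SH-EV arrays and 0.863 to 0.908 between the groups. Probes are not independent, and these r are descriptions. The arrays of mature hepatocyte EVs (MH-EVs), which entered the filter, the normalization and the fit, differed in array measures. They detected 425 to 528 probes, with a blank mean of 59.8 to 77.9. The median of their spike-in spots was 5089 to 7884, against 28848 to 31386.5 in the 2 compared groups. Without the MH-EV arrays, 52 of the 54 calls described below were kept.

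Levels were compared after quantile normalization, on the log2 scale, in a linear model fitted with limma over all 12 arrays, with Benjamini-Hochberg adjustment over the 387 probes and a threshold of 0.05. A positive log2 fold change is a higher level in Thy1-MC-EVs, and each fold change below is followed by its SE. A miRNA that passed is called higher or lower. In this comparison 14.0% of the tested probes were called, 54 of 387, with 25 higher (6.46%) and 29 lower (7.49%) in Thy1-MC-EVs, and 111 had an unadjusted p under 0.05. The median SE was 0.20. Among the called miRNAs, 17 higher and 17 lower ones differed by more than 2-fold. The normalized levels of the groups did not overlap for any of the 54, as for 36.2% of all tested probes. The raw intensities did not overlap for 24 of the 54, which is a description only, since the share over all tested probes was not counted. All 6 arrays detected 38 of the 54. The share of 14.0% depends on the filter, since some of the 387 probes entered only through arrays of the other groups. With detection required on all arrays of Thy1-MC-EVs or of SH-EVs, 267 probes were tested and 59 were called, 26 higher and 33 lower. The median log2 fold change of the 267 was 0.02.

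**Figure D1:**
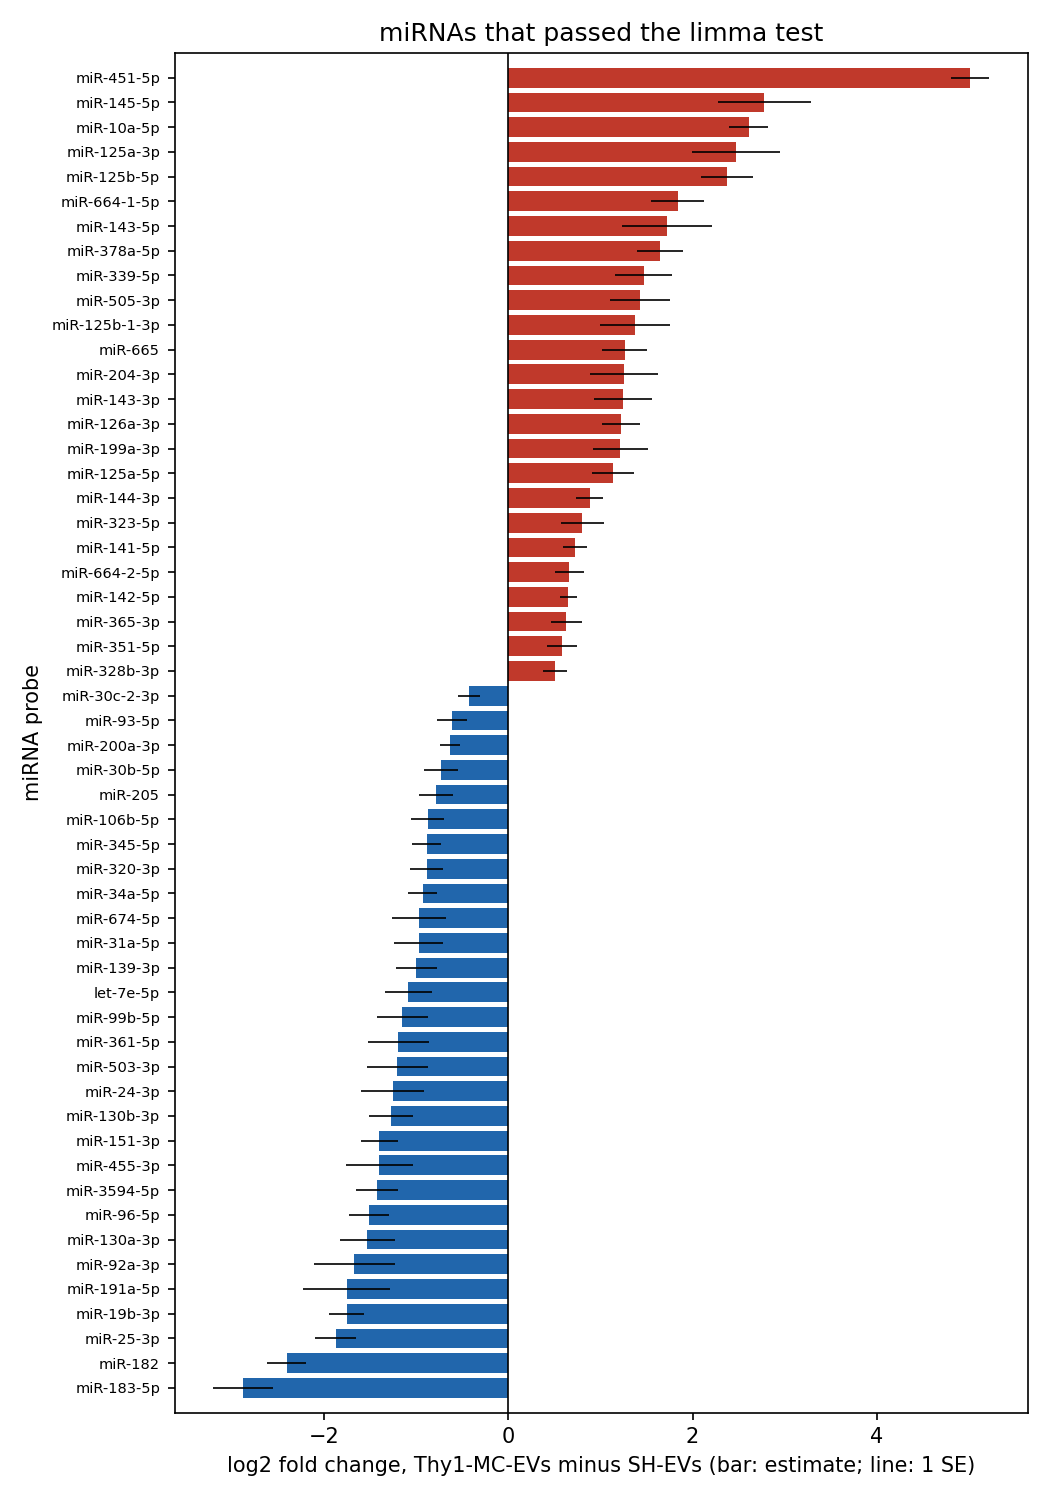
Each bar is the log2 fold change of a called miRNA, Thy1-MC-EVs minus SH-EVs, with 1 SE as a line. The 25 higher miRNAs (red) run up to 5.01 for miR-451-5p, and the 29 lower ones (blue) down to -2.88 for miR-183-5p.

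The count of calls depended on single arrays. It was 32 without Thy1-MC-EV replicate 1, 30 without replicate 2, 32 without SH-EV replicate 2 and 30 without SH-EV replicate 3, and 53 and 54 without the remaining arrays. A call held with each array left out in turn for 28 of the 54 miRNAs. With 5 other scalings of the arrays, 4 miRNAs were called under all 5 (miR-451-5p, miR-125b-5p, miR-10a-5p and miR-664-1-5p, all higher) and 11 more under 4 of them. These were miR-125a-3p, miR-145-5p and miR-204-3p, which were higher, and miR-183-5p, miR-182, miR-96-5p, miR-25-3p, miR-19b-3p, miR-130b-3p, miR-151-3p and miR-3594-5p, which were lower. No other scaling kept the calls on 8 miRNAs, namely let-7e-5p, miR-99b-5p, miR-93-5p, miR-24-3p, miR-674-5p, miR-365-3p, miR-323-5p and miR-328b-3p. Scaling to the median of the common probes called 16 higher and 8 lower, and scaling to the spike-in spots 4 higher and 1 lower, against 25 and 29. No called miRNA changed direction under any alternative.

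The largest difference was that of miR-451-5p, a miRNA of red cell precursors that is matured by Argonaute 2 without Dicer. Its raw intensity was 1965, 1991 and 2416 on Thy1-MC-EV arrays 1 to 3 and 122.2, 118.3 and 107.2 on SH-EV arrays 1 to 3 (log2 fold change 5.01, SE 0.20, limma adjusted p = 3.82e-08). All Thy1-MC-EV arrays detected it and none of the SH-EV arrays did, so only a bound can be given, taking for the SH-EV arrays the higher of the probe's own level and the lowest level of a detected probe. This gave at least 27.3-fold on the background-corrected scale and at least 19.1-fold with no background correction. Bounds below are the lower of these, from the scale with no background correction. Its neighbour miR-144-3p, transcribed with it, had raw intensities of 129.8, 159.6 and 159.9 in Thy1-MC-EVs and 123.2, 108.1 and 96.6 in SH-EVs (log2 fold change 0.88, SE 0.15, limma adjusted p = 0.00264), at least 1.29-fold higher. The miR-144-3p values lay close to the detection limit, and only 1 of the 3 Thy1-MC-EV arrays exceeded the 95th percentile of the probe-free spots. The cluster lies at chr10:63459397-63459640 of GRCr8 (plus strand). Both of its tested members were higher, and none of the SH-EV arrays detected any of the 3 erythroid probes on the chip. Their summed raw intensity was 2188 to 2682 in Thy1-MC-EVs and 295.5 to 355.0 in SH-EVs. Whether red cell material in the cultures contributed to the level of miR-451-5p was not tested.

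The cluster of miR-143 and miR-145, known for its expression in smooth muscle and other contractile mesenchymal cells, was higher in Thy1-MC-EVs with all 3 of its tested probes. Raw miR-145-5p intensity was 610.7, 1485 and 3596 in Thy1-MC-EVs and 309.8, 213.4 and 283.6 in SH-EVs (log2 fold change 2.78, SE 0.51, limma adjusted p = 0.00409), and the lowest Thy1-MC-EV array lay above the highest SH-EV array. For miR-143-5p the values were 208.4, 395.4 and 2374 and 164.5, 359.7 and 240.8 (log2 fold change 1.72, SE 0.49, limma adjusted p = 0.0389). Thy1-MC-EV replicate 3 stood far above the others there, and replicates 1 and 2 lay within the raw range of the SH-EVs or close to it. The opposite strand, miR-143-3p, had 144.8, 318.0 and 231.5 and 146.1, 123.2 and 119.5 (log2 fold change 1.24, SE 0.31, limma adjusted p = 0.0255). The call on miR-143-5p was lost without Thy1-MC-EV replicate 2 or any of the SH-EV arrays, with log2 fold changes of 1.54 to 1.98. It held without Thy1-MC-EV replicate 3, but with a smaller log2 fold change of 1.01. That on miR-143-3p was lost without replicate 2 of either group or SH-EV replicate 3 (0.99 to 1.20). The call on miR-145-5p held throughout (2.32 to 3.30). The genes lie at chr18:57369983-57371453 of GRCr8 (minus strand).

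Other miRNAs known from mesenchyme behaved less uniformly. Of 14 tested members of a mesenchymal marker list, 6 were higher and 1 was lower, with a median log2 fold change of 0.73 against 0 over all tested probes, and 3 of the 6 are the probes of miR-143 and miR-145 above. Among the 11 other members, 3 were higher (miR-10a-5p, miR-125b-5p and miR-199a-3p) and 1 was lower, with a median of 0.68. The largest difference after that of miR-145-5p was that of miR-10a-5p, encoded between Hox genes, with raw intensities of 242.9, 532.9 and 779.3 in Thy1-MC-EVs and 137.3, 129.9 and 126.0 in SH-EVs (log2 fold change 2.61, SE 0.21, limma adjusted p = 2.31e-05). Every SH-EV array was near the blank level, 2 of them just above the detection limit. In the cluster of miR-199a and miR-214, which is expressed in stellate cells and fibroblasts, 1 of 3 tested probes was called. This was miR-199a-3p, at 132.9, 210.3 and 198.6 against 110.5, 118.1 and 104.0 (log2 fold change 1.21, SE 0.30, limma adjusted p = 0.023), undetected in SH-EVs and higher by at least 1.57-fold. Its call was lost on leaving out any 1 array except Thy1-MC-EV replicate 3 (1.14 to 1.24). The opposite strand, miR-199a-5p, had 139.9, 200.1 and 237.4 and 143.0, 155.7 and 144.6 (log2 fold change 0.69, SE 0.24, limma adjusted p = 0.085) and did not pass, nor did miR-214-3p (log2 fold change 0.68, SE 0.37, limma adjusted p = 0.258). The member of the list called lower was miR-31a-5p (log2 fold change -0.98, SE 0.27, limma adjusted p = 0.0334), whose call was lost with any 1 array left out (-1.09 to -0.83).

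The study chose 6 miRNAs on these arrays, and their values here are no independent evidence of direction. Of these, miR-451-5p, miR-145-5p and miR-125b-5p were called higher. The rest, miR-199a-5p, let-7f-5p (log2 fold change 0.52, SE 0.20, limma adjusted p = 0.117) and miR-3473, did not pass. For miR-199a-5p the call depended on the setting. It was called after plain subtraction of the background (1.55, limma adjusted p = 0.0459), with an offset of 16 (0.95, limma adjusted p = 0.0445), with the 6 arrays alone (0.68, limma adjusted p = 0.0113), with array weights (0.64, limma adjusted p = 0.012) and by the methods' t-test, and not under the other 5 scalings. The call on let-7f-5p was made with the 6 arrays alone (limma adjusted p = 0.0358), with array weights (limma adjusted p = 0.0235) and by the methods' t-test before adjustment only. Raw miR-3473 intensity was 7325, 5752 and 19977 in Thy1-MC-EVs and 2521, 3236.5 and 2053 in SH-EVs (log2 fold change 1.71, SE 0.62, limma adjusted p = 0.0993). Its raw values did not overlap, but its normalized levels did. It was called after scaling to the median (2.09) or the 75th percentile (1.79) of the common probes and with the authors' normalized intensity (2.02), as well as with the 6 arrays alone, without the MH-EV arrays and with array weights (1.70 to 1.86).

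**Figure D2:**
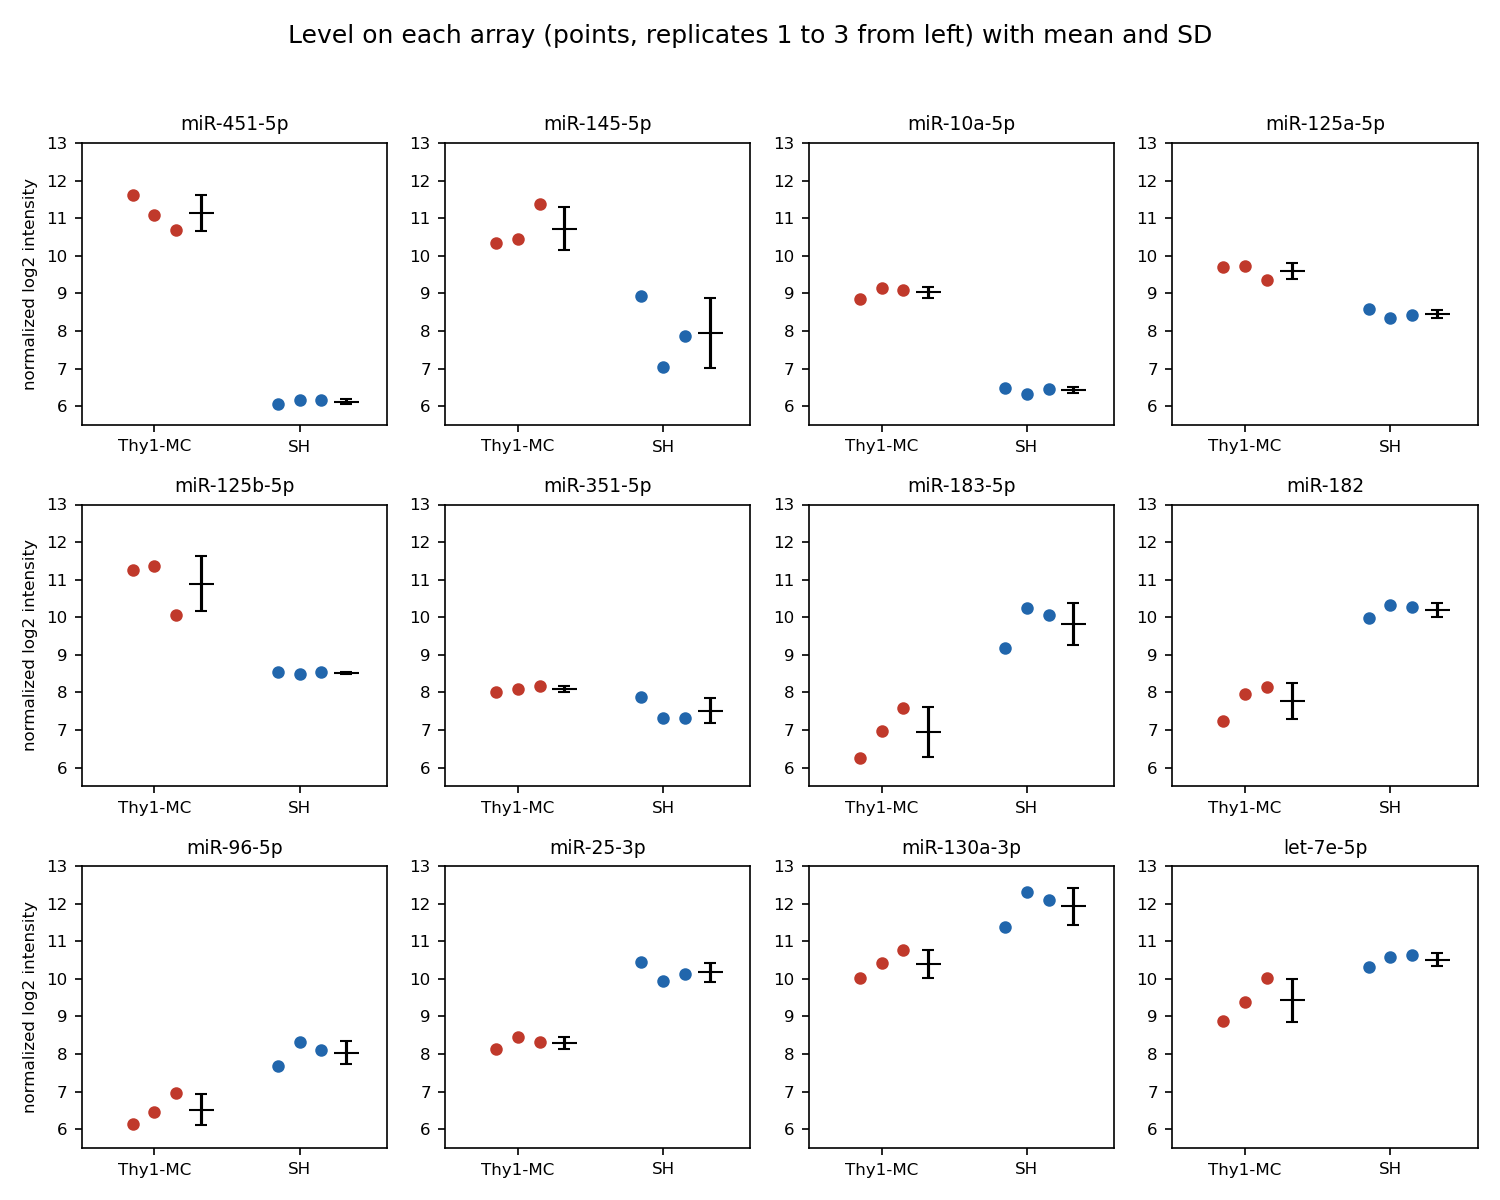
Points are normalized log2 intensities of 12 miRNAs on the 3 Thy1-MC-EV arrays (red) and the 3 SH-EV arrays (blue), with the group mean and SD in black. The groups do not overlap in any panel, and SH-EV levels of miR-451-5p and miR-10a-5p lie at the bottom of the scale.

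Grouped by seed, the 345 tested miRNAs with a sequence formed 293 families, of which 37 had at least 2 tested members. In 24 of these 37 all members had a fold change of the same sign. Most of the 37 had only 2 tested members, so a shared sign says little by itself. At least 2 members were called in 5 families, and within each of these the called members moved in 1 direction. The medians below did not change sign under any of the 5 other scalings.

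The miR-125 family (seed CCCUGAG), the mammalian relatives of lin-4, was higher in Thy1-MC-EVs with all 3 of its members, at a median log2 fold change of 1.14 against 0 over all tested probes. Raw miR-125b-5p intensity was 1453, 2397.5 and 1550.3 in Thy1-MC-EVs and 271.2, 525.8 and 407.9 in SH-EVs (log2 fold change 2.37, SE 0.29, limma adjusted p = 0.000307), and every Thy1-MC-EV array lay above every SH-EV array. For miR-125a-5p the values were 379.9, 809.7 and 928.5 and 271.8, 496.3 and 389.3 (log2 fold change 1.14, SE 0.23, limma adjusted p = 0.00663). There the dimmest Thy1-MC-EV array, replicate 1, lay between SH-EV arrays in raw intensity, and the groups separated after normalization. The rodent member miR-351-5p had 179.3, 314.2 and 408.8 and 212.8, 267.5 and 214.6 (log2 fold change 0.58, SE 0.16, limma adjusted p = 0.0329). Its call was lost on leaving out any 1 array except SH-EV replicate 1 (0.48 to 0.64), whereas those on miR-125a-5p (1.08 to 1.25) and miR-125b-5p (2.13 to 2.79) held. The 3 members are encoded in different clusters.

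Both miR-664 strands on the chip that carry the seed UGGCUGG were higher. Raw miR-664-1-5p intensity was 588.8, 1037.5 and 838.7 in Thy1-MC-EVs against 227.3, 327.4 and 342.5 in SH-EVs (log2 fold change 1.84, SE 0.29, limma adjusted p = 0.00182), without overlap. For miR-664-2-5p it was 150.9, 204.9 and 208.5 against 141.8, 184.8 and 139.8 (log2 fold change 0.66, SE 0.16, limma adjusted p = 0.018), with all values near the detection limit. The mature sequences are near-identical, so the probes may bind both miRNAs, which was not tested. The call on miR-664-2-5p was lost without replicates 1 or 2 of the Thy1-MC-EVs or replicate 3 of the SH-EVs (0.56 to 0.69).

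The miR-25/92 family (seed AUUGCAC) was lower in Thy1-MC-EVs, with 2 of 3 tested members called and a median of -1.67. Raw miR-25-3p intensity was 187.4, 354.0 and 444.1 in Thy1-MC-EVs and 635.6, 1242 and 1191 in SH-EVs (log2 fold change -1.87, SE 0.22, limma adjusted p = 0.000307). The normalized log2 level of miR-92a-3p was 8.08, 7.51 and 7.93 in Thy1-MC-EVs and 9.81, 9.29 and 9.42 in SH-EVs (log2 fold change -1.67, SE 0.44, limma adjusted p = 0.0287). The third member, miR-92b-3p, had 147.8, 179.2 and 251.4 and 294.3, 474.4 and 393.2 (log2 fold change -1.16, SE 0.40, limma adjusted p = 0.0832) and did not pass. For all 3 the brightest Thy1-MC-EV array, raw or normalized, lay below the dimmest SH-EV array. The call on miR-92a-3p was lost with any 1 array left out (-1.82 to -1.52), and that on miR-25-3p held.

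The miR-130 family (seed AGUGCAA) was lower with both tested members. Raw miR-130a-3p intensity was 478.5, 1414 and 2449 in Thy1-MC-EVs and 1297, 5272 and 3745 in SH-EVs (log2 fold change -1.53, SE 0.30, limma adjusted p = 0.00618), and miR-130b-3p had 140.6, 209.2 and 283.5 and 234.4, 734.0 and 560.4 (log2 fold change -1.28, SE 0.24, limma adjusted p = 0.00428). SH-EV replicate 1 was the dimmest SH-EV array for both and lay within the raw range of the Thy1-MC-EVs. Both calls held with each array left out.

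In the miR-17 family (seed AAAGUGC), whose members are known as promoters of cell cycle entry, all 5 tested fold changes were negative, with a median of -0.35, and 2 were called. These were miR-106b-5p, at 133.9, 193.3 and 219.5 against 191.9, 472.3 and 392.2 (log2 fold change -0.88, SE 0.18, limma adjusted p = 0.00738), and miR-93-5p (log2 fold change -0.61, SE 0.16, limma adjusted p = 0.0312), whose call was lost on leaving out any 1 array except SH-EV replicate 2 (-0.65 to -0.52). The values of miR-17-5p (log2 fold change -0.35), miR-20a-5p (-0.03) and miR-20b-5p (-0.33) did not pass. The let-7 family, known for restraining growth and progenitor programmes, had 7 tested members, of which 1, let-7e-5p, was called lower. Its median was -0.43, with 5 negative and 2 positive fold changes. The strands let-7a-5p, let-7b-5p, let-7c-5p and let-7d-5p ranged from -0.46 to -0.39, while let-7f-5p (0.52) and let-7i-5p (0.49) lay on the other side of 0. The let-7 strands differ by few bases, and binding of 1 strand by the probe of another was not tested. None of the 5 tested members of the miR-15/16 family (seed AGCAGCA) was called, and their median was 0.39.

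**Figure D3:**
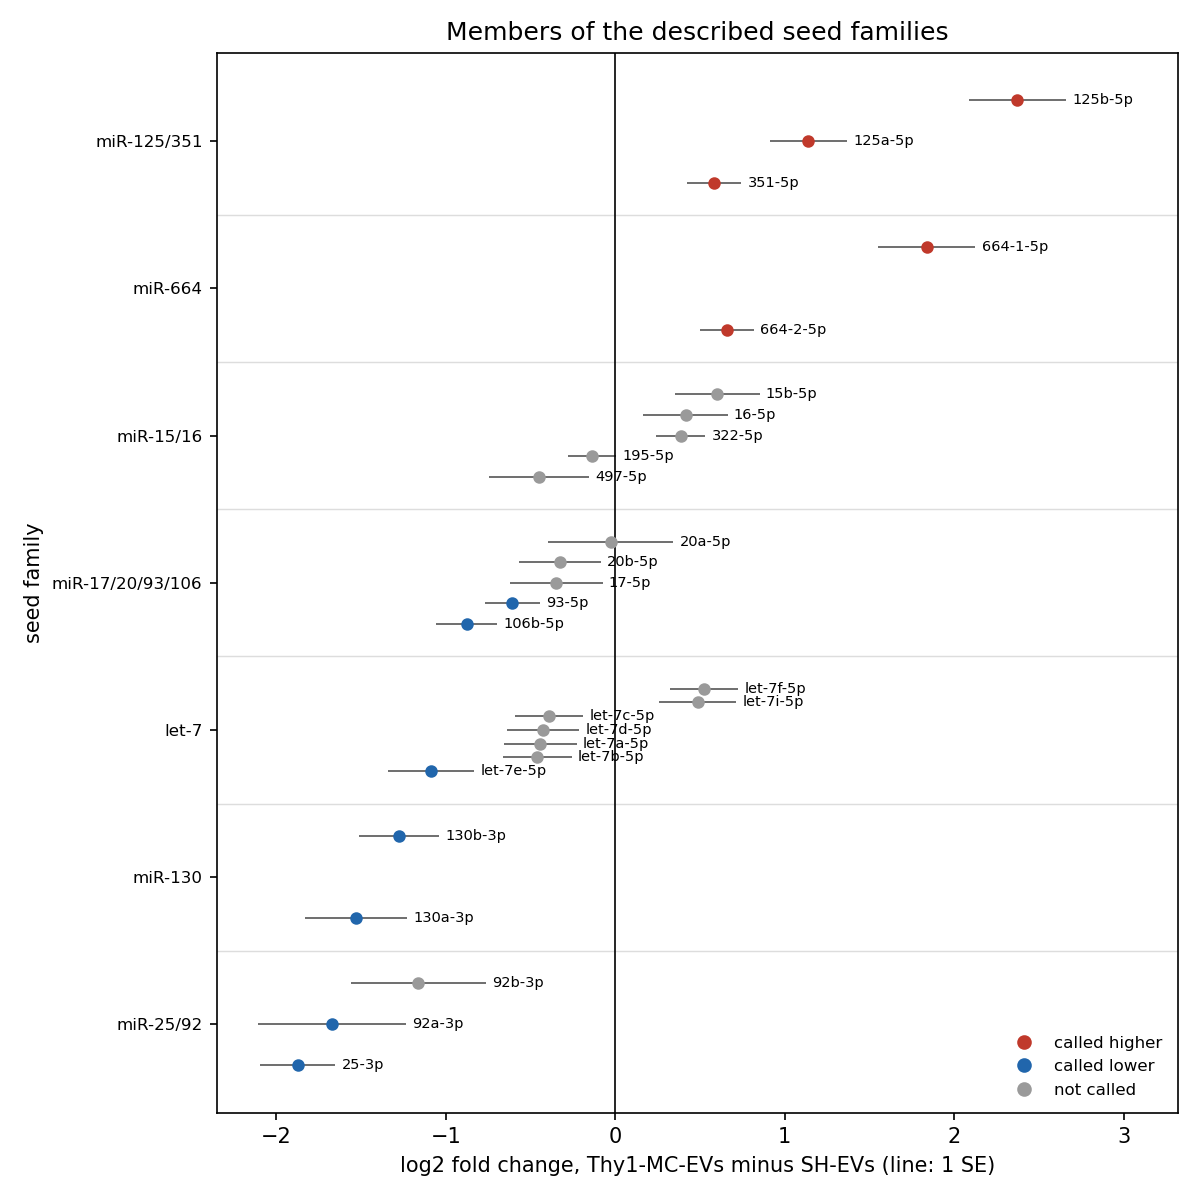
Points are log2 fold changes, Thy1-MC-EVs minus SH-EVs, of every tested member of the 7 families described, with 1 SE as a line. All called members of a family lie on 1 side of 0, from the miR-125 family at the top (0.58 to 2.37) to the miR-25/92 family at the bottom (-1.87 to -1.16).

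Grouped by position in the genome, 33 clusters had at least 2 tested probes, and in 8 of them at least 2 were called. Grouping by distance alone (same strand, gaps of at most 10000 bases in GRCr8) also gave 8 of 33, but not the same 8. By distance, miR-125b was not joined to miR-100 and let-7a, whose group then had 0 of 3 tested probes called. The X-linked group with copies of miR-19b and miR-92a came in instead. Its 2 called probes, miR-19b-3p and miR-92a-3p, are also counted in miR-17/92. In 6 of the 8 listed clusters the called probes moved together, and in 2 they moved apart.

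The strongest lowering in Thy1-MC-EVs was that of the cluster of miR-183, miR-96 and miR-182, which is known from sensory epithelia and lies at chr4:59752246-59756153 of GRCr8 (minus strand). Raw miR-183-5p intensity was 98.3, 175.7 and 276.7 in Thy1-MC-EVs and 329.3, 1582 and 1102 in SH-EVs (log2 fold change -2.88, SE 0.32, limma adjusted p = 0.000215). For miR-182 it was 132.7, 291.3 and 394.2 and 478.4, 1721 and 1262 (log2 fold change -2.41, SE 0.22, limma adjusted p = 4.22e-05), and for miR-96-5p it was 94.4, 146.5 and 185.2 and 195.4, 485.6 and 319.3 (log2 fold change -1.52, SE 0.22, limma adjusted p = 0.00121). In all of them every Thy1-MC-EV array lay below every SH-EV array, and Thy1-MC-EV replicate 1 did not detect miR-183-5p or miR-96-5p. The fourth tested probe, miR-183-3p, did not pass (log2 fold change -0.76, SE 0.24, limma adjusted p = 0.0618). The 3 calls held with each array left out and under 4 of the 5 other scalings, all but the spike-in scaling.

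The miR-17/92 and miR-106b/25 clusters are copies of an ancestral unit and are known for their expression in dividing cells. In miR-106b/25, 3 of 6 tested probes were lower, namely the major strands miR-106b-5p, miR-93-5p and miR-25-3p, while the opposite strands had log2 fold changes of -0.24 (miR-106b-3p), -0.14 (miR-93-3p) and 0.08 (miR-25-5p). The genes of miR-25 and miR-93 lie at chr12:22156641-22156930 of GRCr8 (minus strand). In miR-17/92, 2 of 7 tested probes were lower. Besides miR-92a-3p this was miR-19b-3p, with raw intensities of 205.0, 314.7 and 307.4 in Thy1-MC-EVs and 423.4, 1187 and 919.5 in SH-EVs (log2 fold change -1.76, SE 0.19, limma adjusted p = 0.000197), without overlap. Its near relative miR-19a-3p had a log2 fold change of -0.45, with adjusted p = 0.164 by limma. Both miR-19b and miR-92a also have a copy in the cluster on the X chromosome (at chrX:137342777-137343647 of GRCr8 (minus strand)), and the chip cannot tell the copies apart.

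The cluster of miR-99b, let-7e and miR-125a was called in both directions. It lies at chr1:67350064-67350759 of GRCr8 (plus strand), so that the 3 hairpins follow each other closely on 1 strand. From this cluster miR-125a-5p and miR-125a-3p were higher in Thy1-MC-EVs, while miR-99b-5p and let-7e-5p were lower. Raw miR-125a-3p intensity was 5874.5, 25242 and 16174 in Thy1-MC-EVs and 843.9, 4243 and 2535 in SH-EVs (log2 fold change 2.47, SE 0.47, limma adjusted p = 0.00551), without overlap. For let-7e-5p it was 243.0, 595.8 and 1435 and 563.6, 2249 and 1688 (log2 fold change -1.09, SE 0.25, limma adjusted p = 0.0166), and for miR-99b-5p 197.6, 412.3 and 721.7 and 357.1, 1424 and 932.4 (log2 fold change -1.15, SE 0.27, limma adjusted p = 0.018). The raw values of both overlapped between the groups, and their normalized levels did not. The calls on the 2 lower members were the weaker ones. That on let-7e-5p was lost without Thy1-MC-EV replicate 1 or 2 or SH-EV replicate 2 or 3 (-1.05 to -0.81), that on miR-99b-5p without Thy1-MC-EV replicate 1 or SH-EV replicate 2 or 3 (-1.10 to -0.92), and neither was called under any of the 5 other scalings. The opposite strand miR-99b-3p had a log2 fold change of 0.13.

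In the related clusters that carry miR-125b no probe was called lower, although let-7a-5p and let-7c-5p also had negative fold changes there. In the cluster of miR-100, let-7a and miR-125b, 2 of 5 tested probes were called, miR-125b-5p and miR-125b-1-3p (log2 fold change 1.38, SE 0.38, limma adjusted p = 0.0334), both higher. The fold changes of miR-100-5p (0.77, SE 0.58) and let-7a-5p (-0.44, SE 0.21) did not pass. The call on miR-125b-1-3p was lost on leaving out any 1 array except Thy1-MC-EV replicate 3 (1.01 to 1.55). The cluster of miR-322, miR-503 and miR-351 on the X chromosome (at chrX:137720933-137726241 of GRCr8 (minus strand)) was also called in both directions, with miR-351-5p higher and miR-503-3p lower. Raw miR-503-3p intensity was 131.0, 200.2 and 160.9 in Thy1-MC-EVs and 317.5, 359.1 and 294.7 in SH-EVs (log2 fold change -1.21, SE 0.33, limma adjusted p = 0.0329), without overlap, but its call was lost on leaving out any 1 array except SH-EV replicate 2 (-1.38 to -0.85).

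The imprinted Dlk1-Dio3 region is known for expression in embryonic and mesenchymal cells. Beside the 14.0% called over all tested probes, among 11 tested probes of its miR-127 part 1 was called, miR-665 (log2 fold change 1.26, SE 0.24, limma adjusted p = 0.00551), and among 25 of its miR-379 to miR-410 part 1, miR-323-5p (log2 fold change 0.80, SE 0.23, limma adjusted p = 0.0437), whose call was lost with any 1 array left out (0.57 to 0.93). None of 6 tested probes of the miR-290 to miR-295 cluster of pluripotent cells was called.

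**Figure D4:**
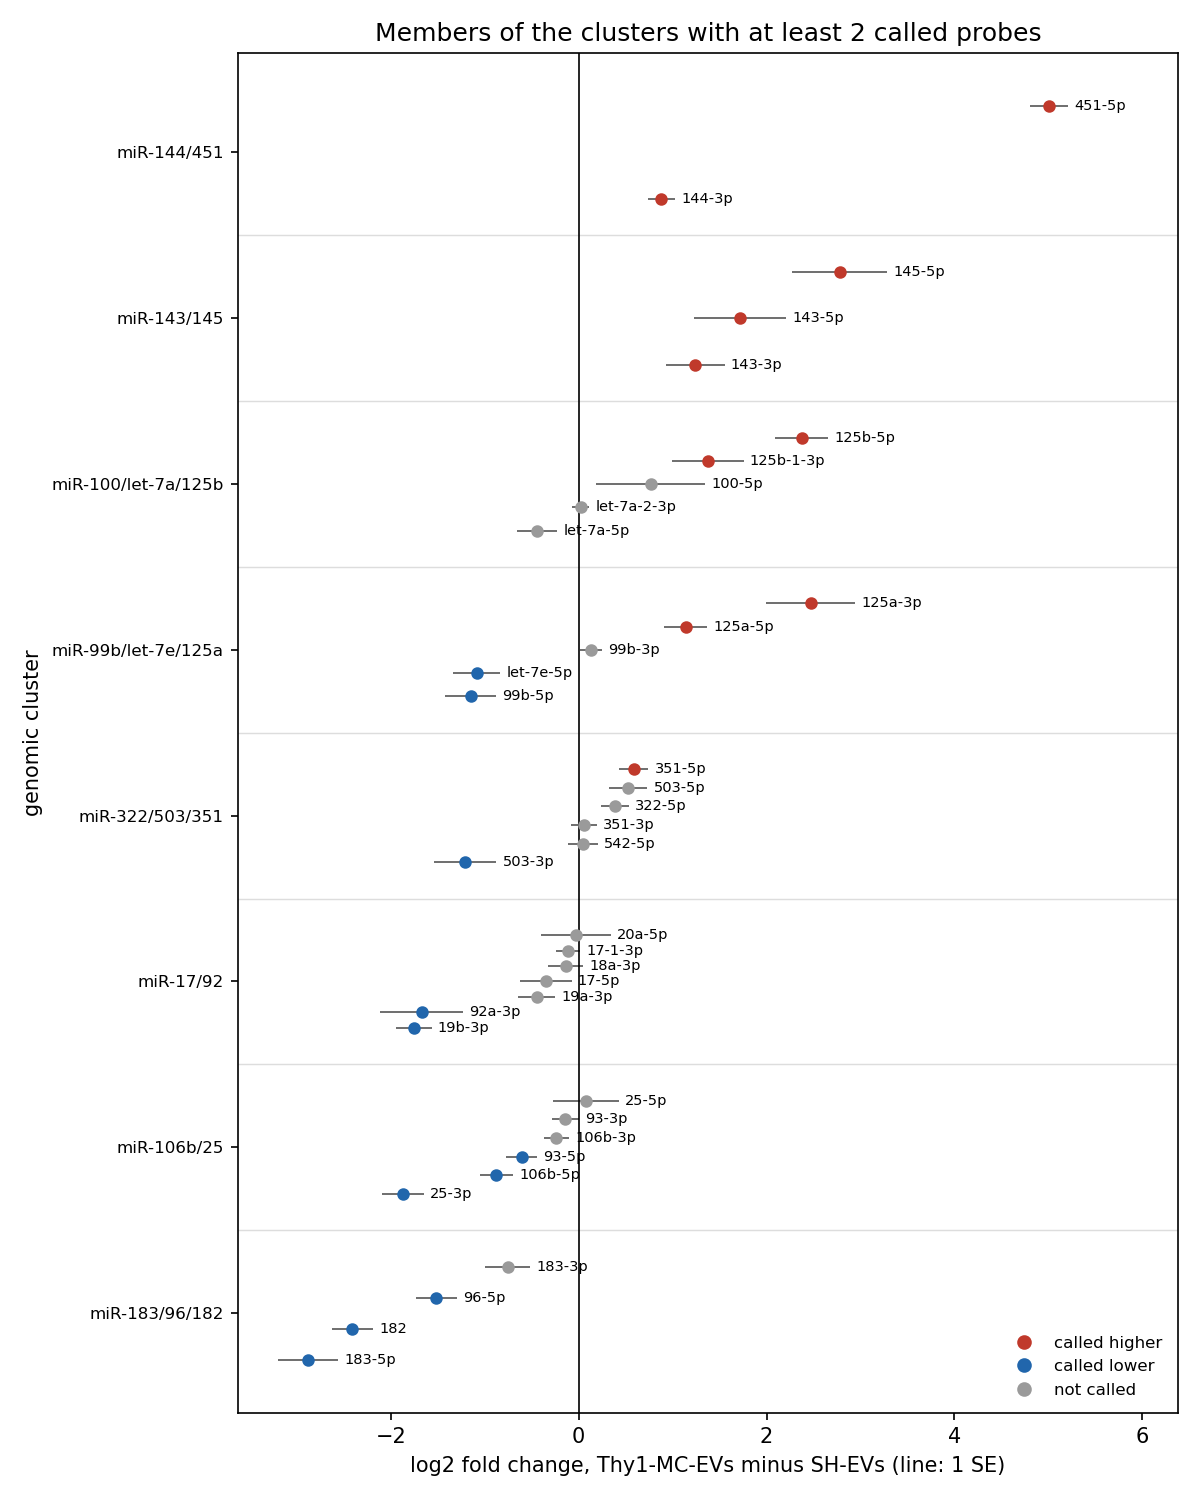
Points are log2 fold changes, Thy1-MC-EVs minus SH-EVs, of every tested probe of the 8 clusters with at least 2 called probes, with 1 SE as a line. In the cluster of miR-99b, let-7e and miR-125a and in that of miR-322, miR-503 and miR-351 the called probes lie on both sides of 0, and in the other 6 on 1 side.

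Both strands of a precursor were tested for 86 hairpins, and the 5p and 3p fold changes had the same sign in 47. At least 1 strand was called in 25, and both in 2, miR-125a and miR-143, whose strands were all higher. Of the 25, the uncalled strand or the second call had the same sign in 18 and the opposite sign in 7. An example of the latter is miR-25, with -1.87 for the called 3p strand and 0.08 for the 5p strand. Another is miR-204, encoded within Trpm3, where miR-204-3p was bright on every array, at 11122, 24807 and 37769 in Thy1-MC-EVs and 3149.5, 10184 and 9555 in SH-EVs (log2 fold change 1.25, SE 0.37, limma adjusted p = 0.0477), while miR-204-5p lay near the detection limit (-0.06). The call on miR-204-3p was lost with any 1 array left out (1.11 to 1.38), although it held under 4 of the 5 other scalings. The levels of different probes cannot be set against each other, so these pairs compare differences between groups and not amounts of the strands.

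**Figure D5:**
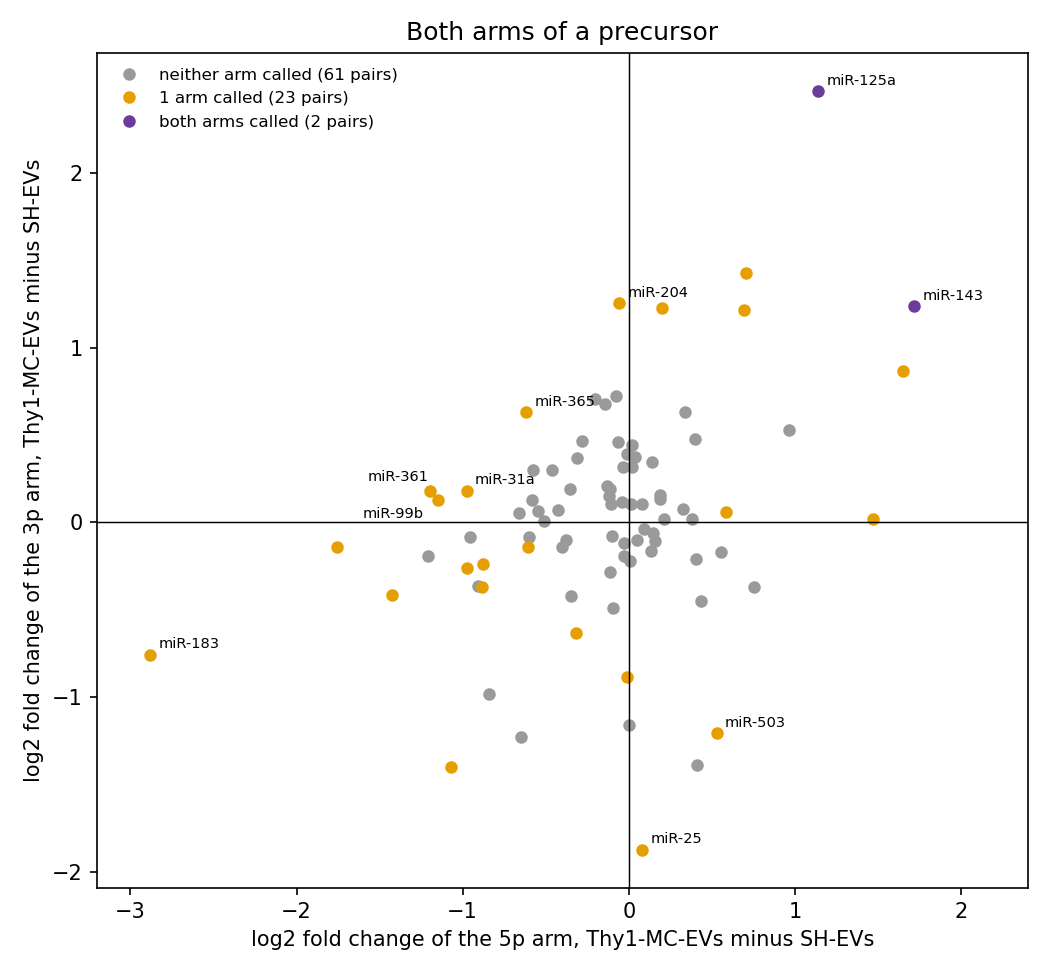
Each point is a hairpin, with the log2 fold change of its 5p strand on the horizontal axis and of its 3p strand on the vertical axis, both Thy1-MC-EVs minus SH-EVs. The 2 hairpins with both strands called (purple) lie at the upper right, and 23 hairpins with 1 called strand (orange) spread over all quadrants.

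Among the called miRNAs outside these families and clusters, miR-378a-5p, encoded in the gene of the coactivator PGC-1beta, was higher in Thy1-MC-EVs, with raw intensities of 274.3, 568.8 and 645.8 against 167.5, 282.6 and 256.1 (log2 fold change 1.65, SE 0.25, limma adjusted p = 0.00146). So were miR-339-5p (log2 fold change 1.47, SE 0.31, limma adjusted p = 0.01) and miR-505-3p (log2 fold change 1.43, SE 0.32, limma adjusted p = 0.0144), the second of which lost its call without Thy1-MC-EV replicate 1 or 2 or SH-EV replicate 2 (1.34 to 1.42). Lower miRNAs included miR-34a-5p, a p53 target, at 150.8, 280.4 and 255.0 against 270.6, 544.1 and 472.4 (log2 fold change -0.93, SE 0.16, limma adjusted p = 0.00264). Raw miR-191a-5p intensity was 306.8, 855.6 and 1893 against 808.3, 5345 and 3047 (log2 fold change -1.75, SE 0.47, limma adjusted p = 0.0321). That call was lost without Thy1-MC-EV replicate 1 or 2 or SH-EV replicate 2 or 3 (-1.73 to -1.32). The lower miRNAs miR-3594-5p (log2 fold change -1.43, SE 0.23, limma adjusted p = 0.00217) and miR-151-3p (log2 fold change -1.40, SE 0.20, limma adjusted p = 0.00121) kept their calls with each array left out, whereas miR-455-3p (log2 fold change -1.40, SE 0.36, limma adjusted p = 0.028) lost its call with any of them (-1.47 to -1.34). The call on miR-24-3p (log2 fold change -1.26, SE 0.34, limma adjusted p = 0.0329), a product of both miR-23/27/24 clusters, was lost on leaving out any 1 array except SH-EV replicate 1 (-1.32 to -1.11).

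Markers of the cells that the cultures could hold were compared as lists of miRNAs with known cell types. The lists, the mesenchymal one above included, were chosen with earlier results of these data known, so their counts are descriptions. Epithelial and biliary miRNAs were lower in Thy1-MC-EVs for 5 of 7 tested, the 3 major strands of the cluster of miR-183, miR-96 and miR-182, miR-200a-3p (log2 fold change -0.63, SE 0.11, limma adjusted p = 0.00293) and miR-205 (log2 fold change -0.79, SE 0.18, limma adjusted p = 0.0171), and none was higher. The median of the list was -0.79, but 3 of the 5 calls belong to 1 cluster. Outside that cluster, miR-200b-3p (-0.29) and miR-203a-3p (-0.21) were not called. Over all tested probes 7.49% were lower. Raw miR-205 intensity was 103.3, 128.8 and 116.6 in Thy1-MC-EVs, where no array detected it, and 155.2, 241.2 and 180.9 in SH-EVs, where all did, which gives a level at least 1.37-fold lower in Thy1-MC-EVs. Its call was lost without replicate 2 of either group or SH-EV replicate 3 (-0.79 to -0.69). On the summed raw scale the 10 probes of this list ranged from 971 to 1655 in Thy1-MC-EVs and from 1948 to 4889 in SH-EVs, without overlap. The sums given for this and other lists include the background of every probe. Blank means were 96.8 to 124.8 in Thy1-MC-EVs and 101.3 to 123.4 in SH-EVs. This sum also holds the 3 strands of the cluster, so it is a description only. Outside the list, miR-141-5p of the epithelial miR-200c cluster went the other way, at 112.0, 159.1 and 183.9 in Thy1-MC-EVs against 120.6, 117.5 and 100.7 in SH-EVs (log2 fold change 0.72, SE 0.13, limma adjusted p = 0.00327), undetected in SH-EVs and higher by at least 1.23-fold. Only 1 Thy1-MC-EV array exceeded the 95th percentile of the probe-free spots for it.

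The hepatocyte list held values on both sides of 0. Of its 9 tested probes none was called lower in Thy1-MC-EVs and 2 were called higher, miR-378a-5p and miR-365-3p (log2 fold change 0.63, SE 0.16, limma adjusted p = 0.0286), the second of which lost its call without Thy1-MC-EV replicate 1 or 2 or SH-EV replicate 2 or 3 (0.50 to 0.63). The median log2 fold change was 0.53, with 5 positive and 4 negative values, and -0.16 without Thy1-MC-EV replicate 3. The negative values, none of which passed, were those of miR-192-5p (-1.21), miR-194-5p (-0.54), miR-101b-3p (-0.48) and miR-101a-3p (-0.18). Every SH-EV array detected 8 of the 9 probes, and every Thy1-MC-EV array 4. Raw intensity of miR-122-5p, the main miRNA of hepatocytes, was 297.5, 718.4 and 2344 in Thy1-MC-EVs and 238.1, 775.5 and 682.4 in SH-EVs (log2 fold change 0.97, SE 0.43, limma adjusted p = 0.164), and the groups overlapped. Thy1-MC-EV replicate 3 held the highest value, and it was also highest for miR-122-3p, at 107.2, 234.4 and 1153 against 150.3, 317.0 and 281.3. The log2 fold change of miR-122-3p was 0.53 (SE 0.67, limma adjusted p = 0.669), and -0.37 without that array. The summed hepatocyte list ranged from 1399 to 6333 in Thy1-MC-EVs and from 1564 to 2837 in SH-EVs. Without Thy1-MC-EV replicate 3, 26 miRNAs were higher and 27 lower, and 44 of the 54 kept their call. The part of hepatocyte EVs in the Thy1-MC-EV arrays was not tested.

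Leukocyte and endothelial miRNAs were few. From the leukocyte list 1 of 4 tested was higher, miR-142-5p (limma adjusted p = 0.00121), with raw intensities of 107.4, 152.3 and 142.2 in Thy1-MC-EVs and 117.2, 105.0 and 92.2 in SH-EVs. No SH-EV array and 2 of the 3 Thy1-MC-EV arrays detected it, so no fold is given, and its raw values overlapped. It did not enter the test with the 6 arrays alone, where the filter left it out. From the endothelial list 1 of 2 was higher, miR-126a-3p, at 156.3, 235.8 and 198.1 against 132.6, 123.8 and 102.0 (log2 fold change 1.23, SE 0.21, limma adjusted p = 0.00277), undetected in SH-EVs and higher by at least 1.75-fold. That call held with each array left out. The part of such cells in the other differences was not tested.

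In sequence, the called miRNAs with a RefSeq entry, 25 higher and 25 lower, had the same median GC content of 52.2%, against 52.4% over the tested ones, and 3p strands made up 40.0% of each group. Short motifs were searched on the mature strand itself. The letters GGAG, known as a core of EV sorting motifs in human cells, occurred in 5 of the 25 higher and 6 of the 25 lower miRNAs, against 45 of the 345 tested. The letters CCCU occurred in 9 higher (36.0%) and 2 lower (8.0%) miRNAs, against 14.8% of those tested. The letters GGCA went the other way, in 1 higher (4.0%) and 9 lower (36.0%) miRNAs, against 10.4% of those tested. The letters UGCA occurred in 3 higher and 7 lower ones, against 15.1%. The last 3 motifs were chosen after the sequences of the called miRNAs had been seen. Of the 9 with CCCU, 3 belong to the miR-125 family, and the 9 lower ones with GGCA include miR-183-5p, miR-96-5p, miR-182 and both strands of the miR-130 family, so the shares are descriptions only.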

How the data were processed

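EV RNA was hybridised to a rat miRNA chip with 1 channel (Cy3), 3 arrays for each of 4 groups. Per the file headers and values, the authors deposited for each array the raw intensity, the intensity after subtraction of the blank-spot mean (empty where not detected) and a linear normalized intensity (median of detected probes 25). Scanner and image software: not given in the sources used here. The article names MultiExperiment Viewer for array analysis. Of 8724 probe values, 6 lay outside the detection rule of the blank mean plus 2 SD.

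The raw intensity was used. It was corrected with normexp (offset 50) against 1504 blank spots per array, quantile-normalized over 12 arrays and taken to log2 (limma 3.58.1, R 4.3.3). After exclusion of 2 flagged values, probes detected by all 3 arrays of any group entered a linear model with a mean per group (lmFit, eBayes, Benjamini-Hochberg). The model was run on simulated, independent normal log2 values with known changes. That run cannot test the background correction or the normalization, since the values were drawn after these steps. A bound was computed as the mean log2 level of the detecting group minus, per array of the other group, the higher of the probe's level and the lowest level of a detected probe, with and without the background correction. Array measures were compared by exact permutation (SciPy 1.17.1). The number of arrays limits the precision.

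Families shared bases 2 to 8 of the RefSeq sequence, and clusters were listed by hand. The miRNAs named were, by rule, the 15 highest and the 15 lowest called, called members of families and clusters, strand pairs with a call, the 6 miRNAs of the article and the markers, and the text gives examples of these. The miRNAs, lists and rules were chosen with earlier results of these data known. Alternatives changed the background correction, scaling, filter, arrays in the fit, variance model, replicate block and each array left out, and included the methods' t-test. The sources used here do not say whether the replicate numbers pair the samples, and the main fit did not pair them. The MH-EV and MSC-EV arrays entered the probe filter, the quantile normalization, the other scalings and the fit, and were not themselves compared here.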

Additional observations from a re-analysis of the deposited data

How the results depend on the processing

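All 54 called miRNAs kept their direction under every alternative run. The count of called miRNAs stayed within 1.5 times of 54 with no background correction (50), an offset of 16 (56), cyclic loess (45), the authors' normalized intensity (39), other filters (41 to 59), the 6 arrays alone (68), without the MH-EV arrays (73) and with an intensity trend (55). It was 34 with plain background subtraction, 24 with median scaling, 22 with 75th percentile scaling, 5 with spike-in scaling and 138 with array weights. The methods' t-test gave 18 after Benjamini-Hochberg adjustment and 102 at an unadjusted p under 0.05. Leaving out 1 array gave 30 to 54. The causes of these changes were not tested. Median scaling moved the median of all probes by 0.10 and 75th percentile scaling by -0.20, so shifts smaller than these have no settled direction. Of the called miRNAs, 66.7% were higher with median scaling, 36.4% with 75th percentile scaling and 80.0% with spike-in scaling, against 46.3%.

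Same-numbered arrays of the groups deviated together with r = 0.49, -0.04 and 0.31, and not every array correlated best with its own number. With the replicate block 70 miRNAs were called (31 higher, 39 lower), 53 of the 54 among them. Families by bases 2 to 7 gave 6 with at least 2 called members in 1 direction against 5. Clusters by position gave 8 against 8, though not all the same clusters. The background correction set the size of fold changes near the detection limit: with no correction and with plain subtraction, miR-451-5p was 4.41 and 9.55, miR-10a-5p 2.18 and 4.68, and miR-199a-3p 0.88 and 5.16 on the log2 scale.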

Other observations

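Values of some miRNAs known from liver or from growth control, picked for this paragraph after their values were seen, did not pass the test. Of these, miR-192-5p is also on the hepatocyte list, and miR-221-3p and miR-222-3p are on the mesenchymal list. Raw miR-21-5p intensity was 507.5, 1253 and 848.7 in Thy1-MC-EVs and 502.7, 973.6 and 883.4 in SH-EVs (log2 fold change 0.15, SE 0.43, limma adjusted p = 0.858). The liver and gut miRNA miR-192-5p had 96.9, 140.5 and 327.5 against 213.6, 397.9 and 330.2 (log2 fold change -1.21, SE 0.38, limma adjusted p = 0.0619), with normalized levels that did not overlap and 1 of 3 Thy1-MC-EV arrays above the detection limit. The growth-linked miR-221 and miR-222 had log2 fold changes of 0.53 (SE 0.24) for miR-221-3p and 0.28 (SE 0.14) for miR-222-3p. From the miR-23/27/24 clusters, miR-23b-3p had -1.16 (SE 0.47, limma adjusted p = 0.136).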
